A study of Homo sapiens with 12 samples.

Results

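The NDUF genes carry the names of the nuclear-encoded parts of NADH:ubiquinone oxidoreductase, complex I of the respiratory chain. They were taken as every gene whose name begins with NDUF in the authors' deposited tables of differential m6A, which gave 49 of 16417 genes. Of these, 37 encode subunits of the complex and 7 encode assembly factors. The remaining members are NDUFA4 and NDUFA4L2, which keep an NDUF name but lie outside complex I, the readthrough transcript NDUFC2-KCTD14, and the antisense RNAs NDUFB2-AS1 and NDUFV2-AS1. A further assembly factor, NDUFAF8, stands in the tables under its older name C17orf89 and was counted with the assembly genes that have no NDUF name.

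The study used NOMO-1, a human acute myeloid leukaemia line with monocytic features, and asked which m6A marks change when the RNA methyltransferase METTL16 is knocked out. Cells were infected with lentivirus carrying guide sgMETTL16-1 or sgMETTL16-2 (knockout) or the negative control guide sgNS (control), and all 3 were grown with puromycin at 2 ug/ml and received no other treatment. Poly(A) RNA of each guide gave 2 input libraries and 2 libraries immunoprecipitated (IP) with an anti-m6A antibody, 12 libraries in all, and the labels do not say that replicate numbers were separate cultures or that the cells were clones. The authors' 4 deposited tables each compare a knockout guide with sgNS for 1 replicate number, and no value per library was used here. Each row of these tables describes 1 transcript window by its fold enrichment of IP over input and by its log2 fold change of m6A between knockout and sgNS. Values below 0 are taken to mean that the knockout had less m6A, which is how this column name is commonly used, although the tables do not state their sign. Where 4 values are given in a row below, they stand for sgMETTL16-1 replicate 1, sgMETTL16-1 replicate 2, sgMETTL16-2 replicate 1 and sgMETTL16-2 replicate 2, in that order.

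Complex I takes electrons from NADH through a chain of iron-sulfur clusters to ubiquinone and pumps protons across the inner mitochondrial membrane. The N module binds NADH, the Q module reduces ubiquinone, and the membrane arm, built around the mitochondrially encoded ND proteins, pumps the protons. Core subunits carry the cofactors and catalysis, and accessory subunits surround and stabilise them. m6A is a methyl mark on internal adenosines of mRNA, most of which is placed by the METTL3-METTL14 complex. METTL16 is a separate enzyme, best known for methylating U6 snRNA and the MAT2A mRNA. An antibody to m6A also binds the related mark m6Am, which sits beside the cap at the first transcribed base.

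Because many NDUF windows reached the start of the gene, the first 30 transcribed bases are shown for the 6 members with a window over part of their first 50 transcribed bases in all of the authors' 4 deposited tables, and for NDUFS6 and NDUFS7, which carry a sequence that recurred among the members. The sequences are from RefSeq (GRCh38.p14), 5′ to 3′ on the gene's strand, and capitals mark ATGGCG or GGACC, a form of the m6A consensus.
NDUFA2: gcacttggcctgaagacctggaattggcga
NDUFA7: agtatcgcggacggaagATGGCGtccgcca
NDUFA8: atgcgcaggcgccgtgtggcactcggcggt
NDUFB10: gtagcgggcgacctaggccgcgGGACCcgg
NDUFB4: gcaattgtgccctggttcgccaagatgtcg
NDUFB8: acgtttggcccggctcagccgccgtgacag
NDUFS6: agcggcgcaaaATGGCGgcggcgatgacct
NDUFS7: gtctgaaggccgaggccaagATGGCGgtgc

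RefSeq start sequences were matched for 43 of the 49 members. On the strand of the gene, ATGGCG lay within the first 50 transcribed bases of 10 of these 43 (23.3%), against 3.14% of 35116 RefSeq starts of the same length. The 10 were NDUFA6, NDUFA7, NDUFA9, NDUFA13, NDUFAB1, NDUFB11, NDUFS3, NDUFS4, NDUFS6 and NDUFS7. The longer AAGATGGCG, which contains it, was in 5 (11.6%, against 0.945%). The m6A consensus GGACN, with any base but G for N, was in 5 members (11.6%), against 14.5% of all starts. The stretch TACAGAGAA, known from METTL16 hairpins, were in 0 members and in 0.0313% of all starts. ATGGCG begins with ATG, the letters of a start codon. The 35116 starts are not limited to protein-coding genes, while all but a few members code for protein. The share of ATGGCG among protein-coding starts alone was not counted, so the shares above do not set NDUF genes apart from other coding genes. These are descriptions of letters in a short stretch, and the other strand was not searched.

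The deposited tables listed 110, 101, 103 and 100 NDUF windows, 414 in all, among 79372, 71406, 75788 and 70002 windows of all genes. A median NDUF gene had 2 windows in each table, and a median gene had 4. NDUFA10, an accessory subunit of the membrane arm, had the most, with 7, 6, 7 and 9 windows in the authors' deposited tables. After it, by the same tables, came NDUFS1, the largest core subunit, with 5, 6, 4 and 4 windows, and NDUFA11, a membrane-arm subunit, with 6, 3, 4 and 4. A window was present in all 4 tables for 43 members. NDUFAB1, the mitochondrial acyl carrier protein, the membrane-arm subunits NDUFB1 and NDUFB5, and the core subunit NDUFV2 had windows in both replicate 1 tables and in neither replicate 2 table. NDUFA1 and NDUFS4 lacked one in the replicate 2 table of sgMETTL16-2. RefSeq lists 74 pseudogenes for 22 of the members, among them 12 each for NDUFA5 and NDUFB4, 7 for NDUFS5 and 6 for NDUFA3. How reads that fit both a gene and its pseudogene were counted is not given in the sources used here.

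All 12 myeloid marker genes examined, such as CD33 and LYZ, had windows in every table. Of the markers of other cell types, CD79A, CD2 and COL1A1 also had windows in every table. Windows show only that reads were found, not a level. METTL16 itself had 7, 7, 6 and 5 windows in the authors' deposited tables, of which 0 passed a false discovery rate (FDR) of 0.05 for the difference, and a relative methylation value cannot check its knockout. Which sgNS libraries entered each table is not given, and tables of 1 replicate number may share them. Read depth per library is unknown.

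NDUF mRNAs were often enriched for m6A, but weakly. Taking as enriched a window with an FDR of IP over input under 0.05, the authors' deposited tables gave 27, 16, 27 and 20 enriched NDUF windows, or 24.5%, 15.8%, 26.2% and 20% of all NDUF windows. The exact (Clopper-Pearson) 95% intervals, which treat windows as independent and cover counting error only, were 16.8% to 33.7%, 9.33% to 24.4%, 18.0% to 35.8% and 12.7% to 29.2%. Over all windows the shares were 8.1%, 11.9%, 10.2% and 12.3%, so the NDUF interval lay above the overall share in every table but the replicate 2 table of sgMETTL16-1. Counted by gene, an enriched window was found in 26 of 49, 15 of 45, 26 of 49 and 17 of 43 NDUF genes with windows (53.1%, 33.3%, 53.1% and 39.5%). Of all genes the shares were 30.4%, 35.9%, 34.5% and 35.8%. The higher share of NDUF genes therefore belonged to the replicate 1 tables, while in replicate 2 the NDUF genes lay close to all genes.

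Other sets of short mRNAs had shares of enriched windows in the same range. Mitochondrial ribosomal protein genes had 27.3%, 22.3%, 26.0% and 24.9% of their windows enriched in the deposited tables. Proteasome subunit genes had 17%, 20%, 21.2% and 17.6%. The intervals of all 3 sets overlapped in each table.

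**Figure D1:**
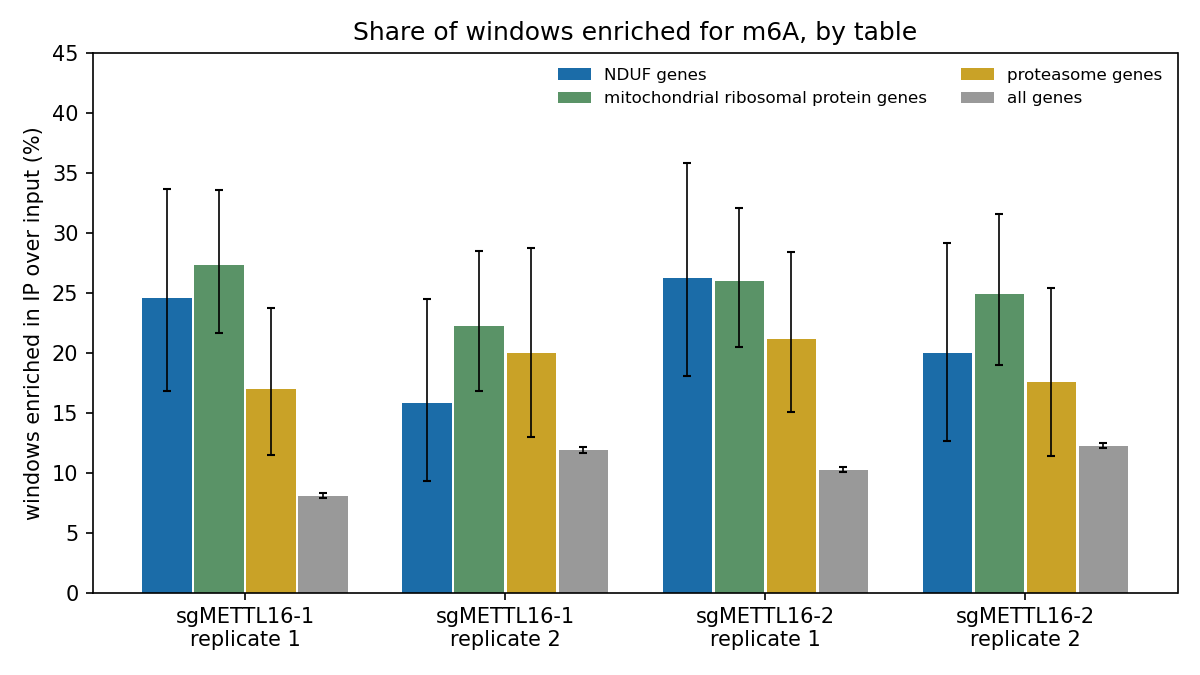
Share of windows enriched in IP over input (percent, vertical axis) in each of the authors' deposited tables (horizontal axis) for NDUF genes, mitochondrial ribosomal protein genes, proteasome genes and all genes. Bars are shares and lines exact 95% intervals of counting error; the NDUF bars lie between 15.8% and 26.2%, and the bars of all genes between 8.1% and 12.3%.

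Enriched NDUF windows had lower folds than enriched windows of all genes. Among enriched windows the median fold enrichment of IP over input was 1.48, 1.47, 1.58 and 1.435 for NDUF genes in the authors' deposited tables, and 1.78, 1.92, 1.88 and 1.89 for all genes. A fold of at least 2 was reached by 3, 1, 4 and 2 enriched NDUF windows (11.1%, 6.25%, 14.8% and 10%). Of all enriched windows 32.3%, 44.8%, 41.1% and 42.5% reached it. Enriched mitochondrial ribosomal protein windows had median folds of 1.68, 1.79, 1.8 and 1.82, and enriched proteasome windows 1.61, 1.7, 1.67 and 1.52. Both sets thus also lay below all genes in every table, though above the NDUF genes. The enriched NDUF windows were also shorter, with medians of 326, 206.5, 345 and 267.5 bases against 417.5, 388, 390 and 388 for all enriched windows. Short windows were shared with the proteasome genes (266, 269.5, 270 and 269.5 bases). The mitochondrial ribosomal protein genes had longer ones (488.5, 326, 417 and 381.5 bases). Windows are not replicates, so these differences were not tested.

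An enriched window was found in all 4 tables for 13 genes. These were the N module subunits NDUFV3, NDUFA2 and NDUFA6, the Q module subunit NDUFS7, the membrane-arm subunits NDUFA3, NDUFA13, NDUFS5, NDUFB7, NDUFB8, NDUFB9, NDUFB10 and NDUFB11, and the assembly factor NDUFAF1. NDUFA7 and NDUFB4 had one in 3 tables, 7 genes in 2 tables, 12 in 1 table and 15 in 0 tables. Among core subunits, NDUFS7 was enriched in all 4 tables, NDUFS3 in 2, NDUFV1, NDUFV2 and NDUFS8 in 1 each, and NDUFS1 in 0. Both antisense RNAs were enriched in 0 tables. How many genes outside the family were enriched in all 4 tables was not counted.

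Among the members enriched in at least 3 tables, the highest folds, by the median over tables of the most enriched window, belonged to NDUFA7, NDUFB8, NDUFA2 and NDUFB4. NDUFA7, an accessory subunit of the N module, had folds of 1.86, 1.32, 2.03 and 4.13 in the authors' deposited tables, the second of them short of the enrichment threshold. NDUFB8, a distal membrane-arm subunit often used as a marker of complex I assembly, had 2.40, 1.46, 2.34 and 1.42, with both replicate 1 values above both replicate 2 values. NDUFA2, an N module subunit, had 1.61, 2.11, 1.34 and 7.44 in the deposited tables. Its last value stood far above the others and belonged to a window of 684 bases, the longest of that gene. NDUFA2 overlaps TMCO6, which lies on the opposite strand. NDUFB4, which has 12 listed pseudogenes, had 1.86, 1.86, 1.82 and 1.23 in the deposited tables, the first of them not enriched. Lower, and within a narrow range, came NDUFV3, an N module subunit, with 1.86, 1.71, 1.58 and 1.81, and NDUFS7, which carries the last iron-sulfur cluster before ubiquinone, with 1.64, 1.65, 1.80 and 1.57 in the authors' deposited tables. NDUFAF1, an assembly factor for the membrane arm, had 1.48, 1.97, 1.77 and 1.39, and NDUFA6, an N module subunit that binds the acyl carrier protein, had 1.65, 1.51, 1.47 and 1.59. NDUFA13, also known as GRIM-19, had 1.43, 1.23, 1.51 and 1.47, and NDUFB7, a distal membrane-arm subunit, had 1.45, 1.34, 1.60 and 1.41 in the same deposited tables. No value per library stands behind these folds, so neighbours in this order cannot be told apart.

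**Figure D2:**
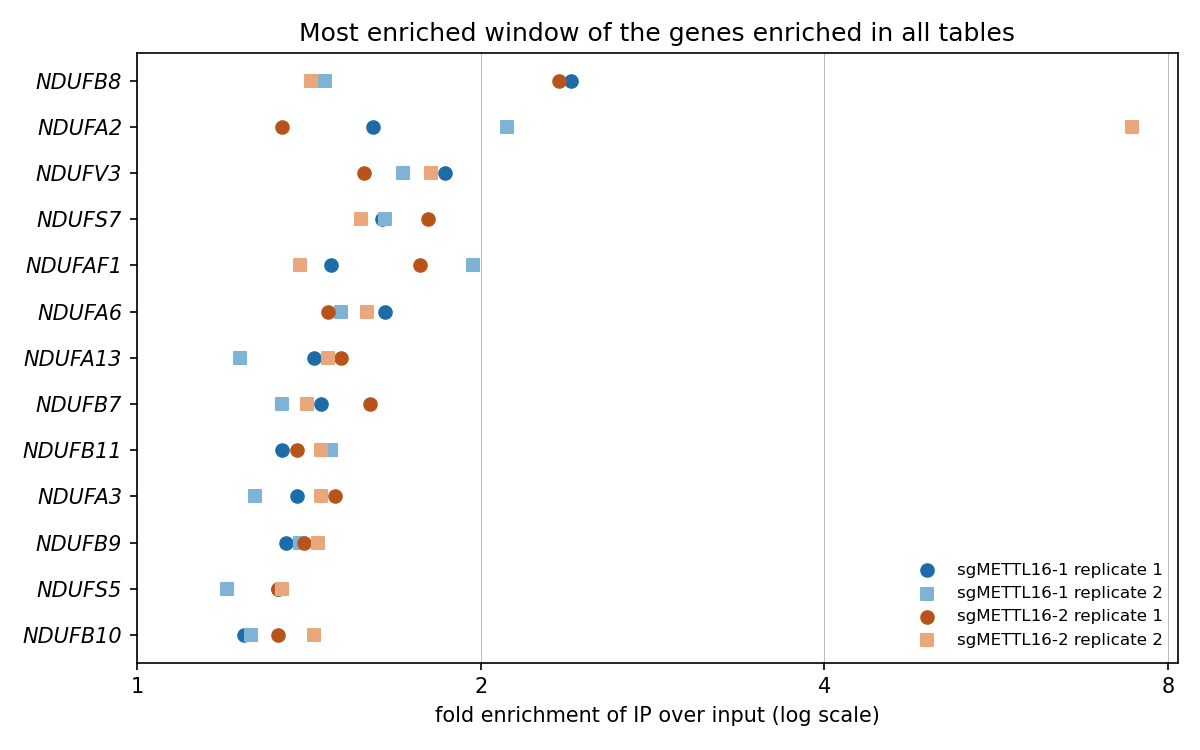
Fold enrichment of IP over input (horizontal axis, log scale) of the most enriched window of the 13 NDUF genes enriched in all 4 deposited tables (vertical axis), with 1 point per table. Most points lie below 2, and the NDUFA2 window of sgMETTL16-2 replicate 2 stands alone at 7.44.

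A large share of the enriched NDUF windows reached close to an end of their gene, by their nearest edge. Of those in the authors' deposited tables, 63.0%, 56.3%, 66.7% and 55% came within 1000 bases of the annotated 3′ end, where m6A is known to gather around stop codons and 3′ UTRs. For enriched windows of all genes the shares were 35.4%, 31.0%, 32.8% and 30.9%. Within 1000 bases of the 5′ end lay 25.9%, 31.3%, 51.9% and 50% of the enriched NDUF windows and 14.4%, 16%, 17.1% and 17.3% of all enriched windows. Some came near both ends, as 9 of 27 did in the replicate 1 table of sgMETTL16-2. Enriched or not, 24.5%, 23.8%, 27.2% and 32% of NDUF windows lay near the 5′ end. Of enriched mitochondrial ribosomal protein windows 32.3%, 21.3%, 27.9% and 25% did, and of enriched proteasome windows 18.5%, 22.7%, 27.3% and 36.4%. NDUF genes are compact, with a median span of 12562 bases from 1742 (NDUFB2-AS1) to 222698 (NDUFAF6), against 25632 over 14878 genes with a span in RefSeq, and the part of span in these shares was not tested. Of all NDUF windows, enriched or not, 44.5%, 39.6%, 42.7% and 41% lay near the 3′ end, against 25.9%, 24.4%, 25.9% and 24.8% of all windows. The mitochondrial ribosomal protein genes had 69.4%, 74.5%, 65.6% and 75% near the 3′ end, more than the NDUF genes in 3 of the 4 tables. Distances were also measured from the midpoint of a window, which falls inside introns where a window joins exons. The 5′ share of enriched NDUF windows was then 0% in every table but the replicate 2 table of sgMETTL16-1 (12.5%). Their 3′ share was 29.6%, 43.8%, 18.5% and 25%. Exon and UTR boundaries were not used here.

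**Figure D3:**
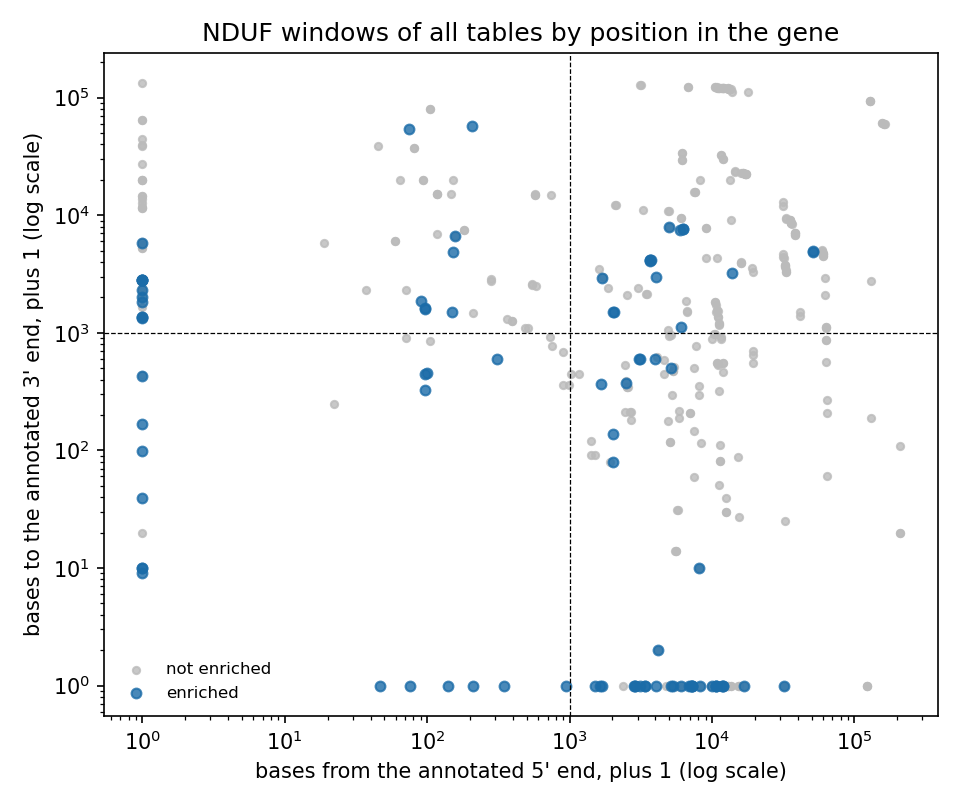
Distance of each NDUF window from the annotated 5′ end (horizontal axis, bases plus 1, log scale) and from the 3′ end (vertical axis, same scale) of its gene, for the windows of all 4 deposited tables. Dashed lines mark 1000 bases; most enriched windows (blue) lie along the lower and left edges, which stand for windows that reach an end of the gene.

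Over some of the first 50 transcribed bases, 19 members had a window in at least 1 table. The window over the NDUFB8 start shown above was enriched in all 4 tables, those over the NDUFA7 and NDUFB4 starts in 3, NDUFA2 in 2, NDUFB10 in 1 and NDUFA8 in 0. The NDUFB8 windows join 4 blocks of the gene, so the start need not be where the antibody bound. In the replicate 2 table of sgMETTL16-2, the NDUFB10 window covers 14 of the first 50 bases and none of those printed. NDUFS7, whose start carries AAGATGGCG, had its window at the other end of the gene. NDUFS6 had a window over its start in both replicate 2 tables, enriched in neither.

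Few NDUF windows differed between knockout and sgNS. With a deposited FDR of the difference under 0.05, the authors' deposited tables called 2, 3, 3 and 1 NDUF windows lower (1.82%, 2.97%, 2.91% and 1% of NDUF windows) and 0, 0, 0 and 1 higher. Of all windows, 0.281%, 0.167%, 0.965% and 0.149% were called lower and 0.0743%, 0.583%, 0.875% and 0.586% higher. The 10 calls fell on 8 genes: the N module subunits NDUFS1, NDUFV2 and NDUFA6, the Q module subunit NDUFS7, the membrane-arm subunits NDUFA3, NDUFB8 and NDUFB9, and NDUFA4. Of the 9 lower calls, 6 lay in enriched windows and 3 in windows that were not enriched. Among enriched windows alone, 3.70%, 18.8%, 3.70% and 5% of NDUF windows were called lower, against 2.79%, 0.766%, 4.38% and 0.676% of all enriched windows in the deposited tables. These NDUF shares rest on 1 of 27, 3 of 16, 1 of 27 and 1 of 20 windows.

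At an unadjusted p under 0.05, 17, 8, 17 and 9 NDUF windows were lower (15.5%, 7.92%, 16.5% and 9%) in the authors' deposited tables. Of all windows, 2.93%, 2.01%, 3.97% and 2.15% were. For higher windows at the same p the counts were 3, 3, 3 and 11 (2.73%, 2.97%, 2.91% and 11%), beside 1.93%, 3.8%, 4.24% and 4% of all windows. Among enriched windows alone, 44.4%, 25%, 29.6% and 20% of NDUF windows were lower at this p, against 16.4%, 4.5%, 11.6% and 4.71% of all enriched windows in the deposited tables. Higher at this p were 3.70%, 18.8%, 7.41% and 35% of enriched NDUF windows and 7.35%, 22.2%, 24.3% and 21.9% of all enriched windows. Whether the deposited p is one-sided is not stated. Enriched windows with a log2 fold change near 0 had a deposited p near 0.5, where a two-sided p would lie near 1. Such were NDUFA12 with sgMETTL16-1 replicate 1 (-0.00121, p 0.516) and NDUFAF1 with sgMETTL16-2 replicate 1 (-0.00355, p 0.519). The shares at this p are thus best read as one-sided in each direction. With the p doubled, 7 of the 10 calls remained. NDUF windows below an unadjusted p of 0.05 were mostly lower in 3 tables and about evenly split in the replicate 2 table of sgMETTL16-2. Of mitochondrial ribosomal protein windows, 11.01%, 1.42%, 13.62% and 1.55% were lower at this p. Of proteasome windows, 10.69%, 3.64%, 12.82% and 3.2% were. In the replicate 1 tables both of these sets thus also lay above all windows, though below the NDUF share. In the replicate 2 tables the NDUF share again lay above both. These differences between sets were not tested.

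The typical NDUF window did not move far in any table. The median log2 fold change of all NDUF windows was -0.02, 0, -0.07 and 0.03 in the authors' deposited tables, where that of all windows was 0 in each. Less the median of all enriched windows, these medians were 0.01, -0.13, -0.19 and -0.11, so the first and the last changed sign. Most NDUF windows were not enriched, so this subtraction sets unlike windows beside each other. For enriched NDUF windows the medians were -0.12, -0.02, -0.02 and 0.17, and for all enriched windows -0.04, 0.13, 0.13 and 0.14. Of the enriched NDUF windows, 20 of 27, 8 of 16, 16 of 27 and 6 of 20 had a log2 fold change below 0 in the deposited tables (74.1%, 50%, 59.3% and 30%). For all enriched windows the shares were 56.0%, 32.7%, 36.6% and 32.5%. The NDUF windows followed all enriched windows closely in the replicate 2 table of sgMETTL16-2 and lay lower in the other 3. Of enriched mitochondrial ribosomal protein windows, 71.0%, 27.7%, 52.5% and 31.3% lay below 0. Of enriched proteasome windows, 66.7%, 36.4%, 66.7% and 45.5% did. In the replicate 1 tables the lower position was thus shared with both of these sets.

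**Figure D4:**
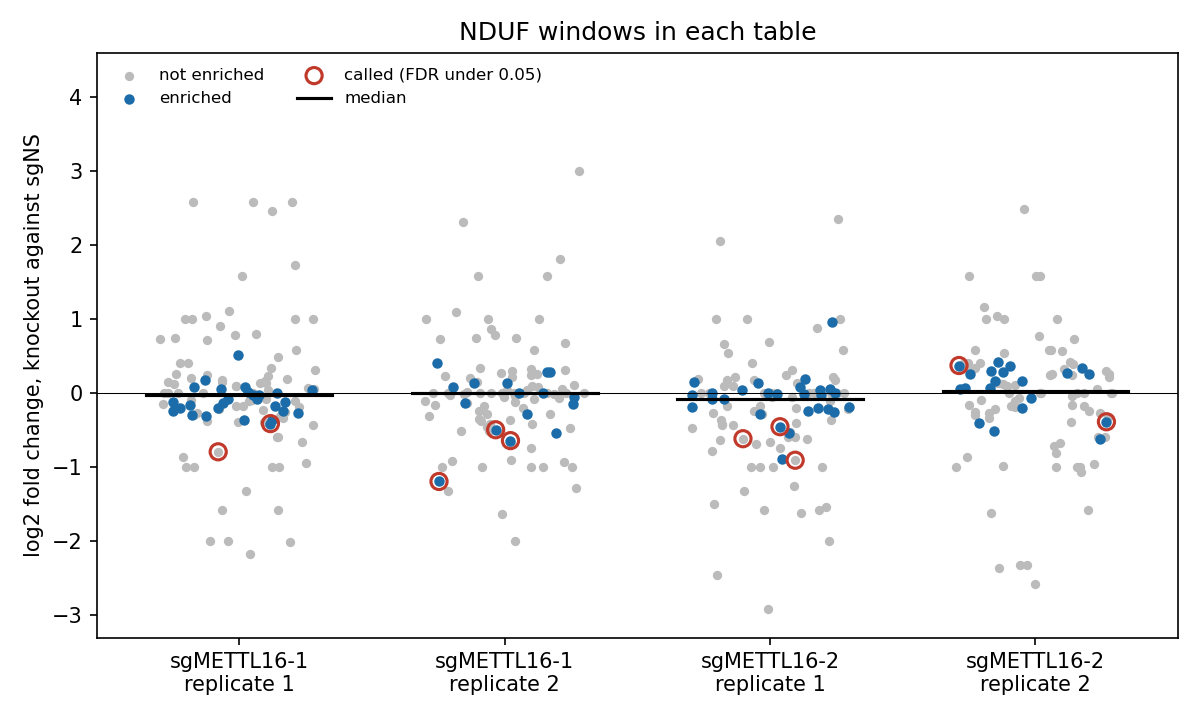
Log2 fold change of m6A between knockout and sgNS (vertical axis) for every NDUF window of the authors' deposited tables (horizontal axis), with enriched windows in blue, others in grey and called windows circled in red. Medians (bars) lie between -0.07 and 0.03, and 9 of the 10 called windows lie below 0.

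NDUFB9, a distal membrane-arm subunit of the LYR protein family, had the call with the smallest FDR. Its window at chromosome 8, 124549778 to 124549986 (GRCh38, plus strand), at the 3′ end of the gene, had a log2 fold change of -0.49 in the replicate 2 table of sgMETTL16-1 (deposited FDR 7.59e-09) and -0.38 in that of sgMETTL16-2 (deposited FDR 2.57e-05). In the replicate 1 tables the overlapping windows, of 120 and 476 bases against 209, had -0.15 and -0.08 in the authors' deposited tables, with FDRs of 0.655 and 0.392. The windows of all 4 tables were enriched, with deposited folds between 1.35 and 1.44. All 4 values lay below 0, and both replicate 2 values lay below both replicate 1 values.

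NDUFS7 of the Q module split by replicate number. Its window at chromosome 19, 1391162 to 1395589 (plus strand), reaching the 3′ end, had log2 fold changes of 0.09, -0.64, 0.09 and -0.40 in the authors' deposited tables. The second was called (FDR 0.00155), the fourth was not (FDR 0.133). The values of the replicate 1 tables lay above 0 and those of the replicate 2 tables below it.

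NDUFA6 had a value below 0 in every table and was called in 1. Over chromosome 22, 42087158 to 42090677 (minus strand), the log2 fold changes were -0.24, -1.19, -0.26 and -0.61 in the authors' deposited tables, the second with an FDR of 0.00219. The called window was 90 bases long and the window of sgMETTL16-2 replicate 2 was 119, while those of the replicate 1 tables covered 652 and 533 bases of the same mRNA. The 2 short windows had the larger differences.

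The 3 calls on core subunits of the N module fell in replicate 1 tables, in windows short of the enrichment threshold. NDUFS1, the largest subunit, which carries iron-sulfur clusters, had the same window in both replicate 1 tables, at chromosome 2, 206144945 to 206147561 (minus strand). Its log2 fold change was -0.79 with sgMETTL16-1 (FDR 0.0316) and -0.90 with sgMETTL16-2 (FDR 0.0049) in the authors' deposited tables, and its FDR of IP over input was 0.607 and 0.338. The replicate 2 table of sgMETTL16-1 had no window there, and the nearest in that of sgMETTL16-2 shared 1 base with it and had 0.39. NDUFV2, which holds an iron-sulfur cluster beside the flavin, had a window of 570 bases at chromosome 18, 9119537 to 9134345 (plus strand), overlapping NDUFV2-AS1 on the opposite strand. In the deposited tables its log2 fold change was -0.36 with sgMETTL16-1 (FDR 0.205) and -0.61 with sgMETTL16-2 (FDR 0.001), with an FDR of IP over input of 0.0204 and 0.055. NDUFV2 had no window in replicate 2.

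NDUFA3 and NDUFB8 changed sign between tables. NDUFA3, a small membrane-arm subunit with 6 listed pseudogenes, had -0.41, -0.13, -0.28 and 0.17 at chromosome 19, 54105969 to 54106974 (plus strand), in the authors' deposited tables, and the first was called (FDR 0.0234). NDUFB8, at chromosome 10, 100526552 to 100529923 (minus strand), had -0.20, 0.14, 0.05 and 0.38 in the deposited tables, and the last was the 1 NDUF window called higher (FDR 0.0182). Its window covers the start sequence printed above.

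NDUFA4, now counted as a subunit of cytochrome c oxidase and named COXFA4 in RefSeq, had a value below 0 in all 4 tables. Over chromosome 7, 10933444 to 10938139 (minus strand), its log2 fold changes were -0.31, -1.63, -0.45 and -1.62 in the authors' deposited tables, and the third was called (FDR 0.0209). The replicate 2 windows covered 90 and 61 bases, were not enriched and had FDRs of 0.254 and 0.179 for the difference. NDUFA4 has 5 listed pseudogenes.

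**Figure D5:**
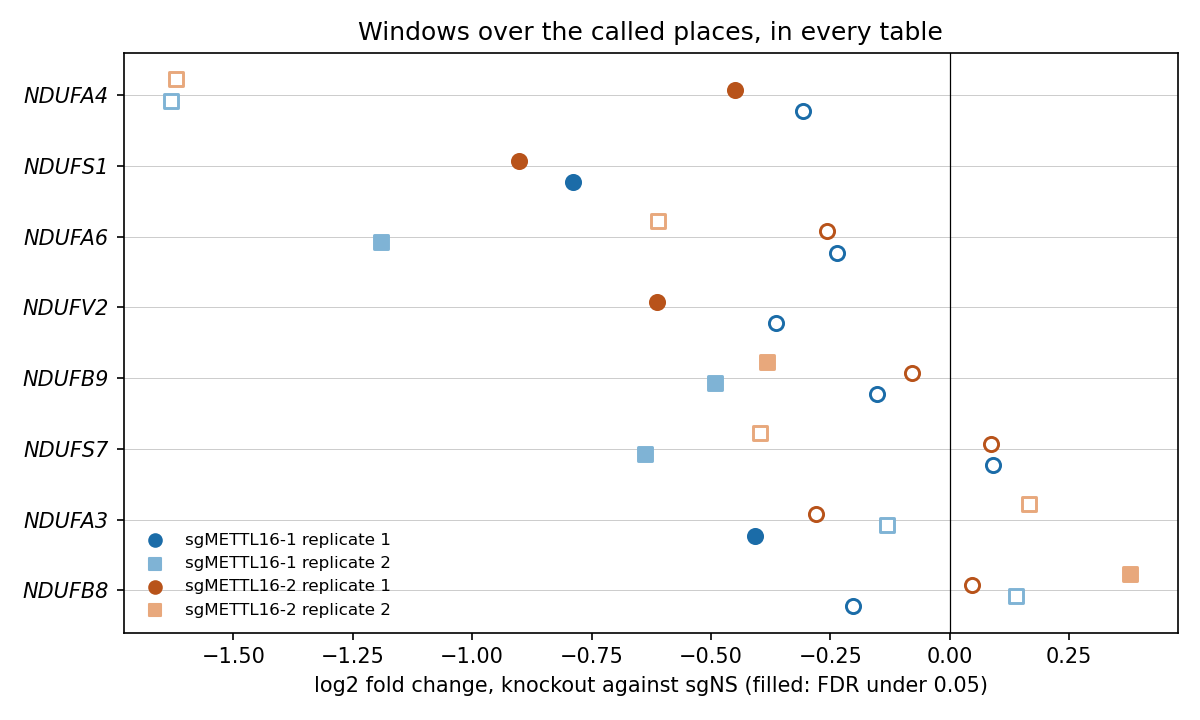
Log2 fold change between knockout and sgNS (horizontal axis) of the window over each called place in each of the authors' deposited tables, for the 8 NDUF genes with a call (vertical axis). Filled symbols are called, and the NDUFS1 window that shares 1 base is not drawn; NDUFA4, NDUFA6, NDUFB9 and NDUFV2 lie left of 0 wherever a window was found, and NDUFS7, NDUFA3 and NDUFB8 lie on both sides.

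Among the calls, NDUFS1 (0.0316) and NDUFA3 (0.0234), both with sgMETTL16-1 replicate 1, lay closest to the threshold in the deposited tables. Just outside lay NDUFS5, a membrane-arm subunit with 7 listed pseudogenes, and its direction differed: its log2 fold changes were -0.19 (FDR 0.149) and 0.29 (FDR 0.222) with sgMETTL16-1 and -0.19 (FDR 0.0741) and 0.42 (FDR 0.0794) with sgMETTL16-2 in the authors' deposited tables. Its replicate 2 values came from opposite ends of the gene, and the 3′ window of sgMETTL16-2 replicate 2 had 0.12 (deposited p 0.191). Also just outside were NDUFC2, a membrane-arm subunit, at 0.58 (FDR 0.0891) with sgMETTL16-2 replicate 2, and the assembly factor NDUFAF4 at -0.88 (FDR 0.0933) with sgMETTL16-2 replicate 1, by the deposited tables. NDUFC2 shares its reads with the readthrough NDUFC2-KCTD14, so the 2 cannot be told apart.

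No call recurred between the tables of 1 guide. Windows of the same gene and strand were paired when the bases they had in common made up a fraction of at least 0.5 of the first and also of the second, which gave 39 NDUF pairs between the tables of sgMETTL16-1 and 38 between those of sgMETTL16-2. Of these, 0 were called in both tables of a guide in either direction by the deposited FDR. At an unadjusted p under 0.05 in both, 2 were lower and 0 higher for each guide. Recurrence was not counted over all genes, so these counts have no share of all windows beside them and do not set NDUF genes apart. Between guides, the replicate 1 tables shared the NDUFS1 call and the replicate 2 tables the NDUFB9 call, but these pairs may share sgNS libraries.

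A window was matched across all 4 tables for 20 genes, 7 of them enriched in every table, and 0 were called in all, also at an unadjusted p under 0.05. Windows of unequal length are not matched by this rule, and NDUFB9, NDUFA6 and NDUFA4 were left out for that. The overlapping windows of these 3 genes, which have a call, lay below 0 in all 4 deposited tables, with unadjusted p-values from 7.94e-12 to 0.0457 for NDUFB9, from 9.77e-06 to 0.0251 for NDUFA6 and from 0.000372 to 0.00646 for NDUFA4. The sign was the same in all tables for 8 of the 20, with 4 below 0 and 4 above. The like count over all genes was not made. Lowest on average was NDUFS8, the Q module subunit with a pair of iron-sulfur clusters, at -0.33, -0.28, -0.36 and -0.34 in the authors' deposited tables, with FDRs between 0.621 and 0.658. It was enriched in 1 table, with folds between 1.21 and 1.32. Its 4 values lay close together, and no table called it. NDUFAF1 followed with -0.17, -0.15, -0.00 and -0.51, and NDUFS6, a zinc-binding N module subunit, with -0.17, -0.30, -0.03 and -0.23 in the deposited tables. Highest was NDUFC2 at 0.58, 3, 0.58 and 1 in the authors' deposited tables, in a window that was enriched in none and had deposited p-values of 0.345 or more. NDUFA10 had 1.12, 0.22, 0.18 and 0.34, with an FDR of 0.475 or more, and was enriched in none. NDUFV3, enriched in all tables, had 0.06, 0.42, 0.14 and 0.31 in the deposited tables, with FDRs between 0.515 and 0.659.

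The core subunits NDUFV1 and NDUFS3 had no call. For NDUFV1, which binds NADH and the flavin, the most enriched window had log2 fold changes of -0.14, 0.04, 0.19 and 0.37 in the authors' deposited tables, though not over the same place. NDUFS3, in the Q module, had 0.01, 0.10, -0.01 and -0.19 in the deposited tables, close to 0 in the first 3.

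Other genes of the pathway also had calls in both directions. The list of complex I assembly genes without an NDUF name held 15 names, of which 13 had windows. The names without one, DMAC1 and DMAC2, are newer names of the genes listed as TMEM261 and ATP5SL, which had windows. Of these assembly genes, 0 were called in any deposited table. At an unadjusted p under 0.05, 3, 2, 3 and 0 of their windows were lower and 1, 1, 0 and 2 higher. None of the 7 mitochondrially encoded ND genes had a window under its MT-ND name, and other spellings were not searched. In complex II, with 18, 14, 18 and 18 windows, SDHA was called lower with sgMETTL16-1 replicate 2 (-1.17), and SDHB (-0.35) and SDHAF3 (-1.21) with sgMETTL16-2 replicate 1 in the authors' deposited tables. In complex III, with 28, 24, 33 and 26 windows, UQCRB was called lower in both replicate 1 tables (-0.38 and -0.46) and UQCR11 higher with sgMETTL16-1 replicate 2 (0.50). Complex IV, with 57, 47, 61 and 54 windows, had 1, 0, 5 and 0 called lower and 0, 0, 1 and 1 higher in the deposited tables, with COX7B lower in both replicate 1 tables (-0.22 and -0.36) and COX7C farthest from 0 (-0.99). Complex V, with 48, 34, 45 and 32 windows, had 1, 0, 1 and 0 lower and 0, 1, 0 and 0 higher. With between 193 and 235 windows per table, the mitochondrial ribosomal protein genes had 1, 0, 9 and 0 lower and 0, 4, 1 and 3 higher, and the proteasome genes, with between 110 and 159, had 3, 0, 7 and 1 lower and 0, 1, 1 and 0 higher, by the deposited FDR. Of all windows, 0.281%, 0.167%, 0.965% and 0.149% were called lower and 0.0743%, 0.583%, 0.875% and 0.586% higher. Most lower calls on complex IV, mitochondrial ribosomal protein and proteasome genes came from the replicate 1 table of sgMETTL16-2, the table with most lower calls over all genes. There 2.91% of NDUF windows were called lower, beside 3.83% of mitochondrial ribosomal protein and 4.49% of proteasome windows. The 9 lower NDUF calls numbered 2, 3, 3 and 1 by table, too few to compare their spread with that of other sets.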

How the data were processed

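Input and m6A IP libraries of NOMO-1 poly(A) RNA were prepared with a TruSeq stranded kit and sequenced, per the labels' protocols. The submitters' processing notes name STAR and the build GRCh38. For the peak caller and its test, nothing is stated in the labels or headers. Per the file headers, the authors deposited the difference of knockout from sgNS as a log2 fold change, the fold enrichment (a ratio of IP over input), and the log10 scores of each p-value and FDR; the p-value was recovered from its deposited log10 score. The tables hold comparisons only, so no spread between libraries, depth or test of a difference could be had here.

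A window was called at a deposited FDR under 0.05, with direction by sign, and enriched at an IP over input FDR under 0.05. Coordinates start from 1. Gene ends and start sequences came from RefSeq GRCh38.p14 tables, and the 49 members all had ends. Named members were those with a call, the core subunits, up to 10 with the highest median fold among those enriched in most tables, the 3 lowest and 3 highest of the windows with 1 sign in all tables, the 3 with most windows, those without a window in a table, and those near the threshold; values of 1 core subunit and of some marker genes are not reported here. The members, lists and rules were chosen with earlier results of these data known. Matching was tested on shifted copies of real windows of a single block, and the Benjamini-Hochberg adjustment on simulated p-values. Counting, and matching of windows that join several blocks, were not tested. Python 3.11.15, numpy 2.4.6, pandas 2.3.3, scipy 1.17.1 and matplotlib 3.10.9 were used.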

Additional observations from a re-analysis of the deposited data

How the results depend on the processing

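No paired analysis was possible because the deposited tables hold comparisons and no value per library. Over 182 alternative values, 118 stayed within the limits set for them, 0 calls changed direction, and 2 medians changed sign, as given below. Some of the 118 could not have changed, since a count of 0 stays 0 under a stricter rule. Alternatives that only filter windows could not change a direction either. Windows called lower numbered 0, 1, 0 and 0 where 1 log2 unit or more of change was required, 0 in each table at a fold of at least 2, 1 in both replicate 1 tables among enriched windows alone, and 0 in the replicate 1 table of sgMETTL16-1 at FDR 0.01 or with the p doubled as for a two-sided test. With each table's log2 fold changes centred on its enriched windows, they numbered 0 there, 7 in the replicate 1 and 2 in the replicate 2 table of sgMETTL16-2. Genes with a call followed the same counts, except 1 in the replicate 2 table of sgMETTL16-2 at FDR 0.01. The window called higher, in NDUFB8, gave 0 at FDR 0.01, at either minimum, and after centring. Of the 10 calls, 6 passed FDR 0.01, the doubled p and centring together: NDUFB9 with both guides, NDUFS7 and NDUFA6, and NDUFS1 and NDUFV2 with sgMETTL16-2. Adjusting the deposited p by Benjamini-Hochberg, an alternative chosen after seeing the data, lost 0 calls. With 1 table per guide, 2 to 3 windows were lower for sgMETTL16-1, 1 to 3 lower and 0 to 1 higher for sgMETTL16-2, and 1 was lower in both guides, NDUFS1 or NDUFB9.

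Requiring a fold of at least 2 left 2.73%, 0.990%, 3.88% and 2% of NDUF windows enriched, and 6.12%, 2.22%, 8.16% and 4.65% of genes. The median log2 fold change of NDUF windows was -0.077 and -0.0685 in the tables of sgMETTL16-1 with 1 value per gene, and -0.0509 in its replicate 1 table without readthrough genes. Less the median of all enriched windows, a reference unlike the mostly not enriched NDUF windows, it was 0.01435, -0.134, -0.194 and -0.107. The sign changed in the first and last. The median of enriched NDUF windows became -0.155 and 0.032 in the replicate 2 tables by the same subtraction. With distance from the midpoint, 0% of enriched windows lay near the 5′ end in 3 tables, and 29.6%, 18.5% and 25% near the 3′ end in those tables, in both replicate 1 tables and the replicate 2 table of sgMETTL16-2.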

Other observations

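Many NDUF windows that were not enriched had a log2 fold change within 0.005 of the log2 of a ratio of whole numbers up to 4, such as 1 or -1. Their share was 26.5%, 28.2%, 34.2% and 30% in the authors' deposited tables, in the order used in the report, and 3.70%, 6.25%, 3.70% and 0% of the enriched NDUF windows had such a value. Over all genes it was 31.8%, 35.8%, 35.5% and 35.5% of windows that were not enriched and 2.91%, 2.94%, 3.04% and 2.70% of enriched windows. The NDUFC2 values of 1 and, in both replicate 1 tables, of 0.585, and the NDUFA11 values of -2 and -1 are of this kind.

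NDUFA11, a membrane-arm subunit, had the highest median fold of any protein-coding member in its most enriched window, with 5.94, 6.76, 4.56 and 3.31 in the deposited tables, with log2 fold changes of -2, -1, -2.91 and -2.32. None of these windows was enriched at FDR 0.05 and none was called.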
